A study of Mus musculus with 2 samples.

Results

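Fat cells and brown fat cells are marked by 10 genes considered here: Pparg, Cebpa and Prdm16, which encode transcription factors; Adipoq and Lep, which encode hormones; and Fabp4, Plin1, Cidea, Slc2a4 and Ucp1, which encode proteins of lipid, glucose and heat metabolism. Their probe sets were taken wherever the platform annotation gave 1 of these symbols and no other. This gave 16 of 45101 probe sets, for 9 of the 10 genes, and no probe set was found under Plin1, whose expression is not analysed here. The samples were 2 arrays of total RNA from skeletal muscle of the diaphragm, taken from C57/BL6 mouse embryos at E18.5, 1 labelled RP58+/+ (wild type) and 1 labelled RP58-/- (knockout). RP58, now named Zbtb18, is a zinc finger transcriptional repressor. The sources used here give neither the number of embryos behind each sample nor the cells in which the gene was deleted.

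Adipocytes store triglyceride in lipid droplets and release it on demand. PPARγ, from Pparg, and C/EBPα, from Cebpa, switch on the genes of the mature fat cell in mutual support. Brown fat cells arise from progenitors related to those of skeletal muscle, with PRDM16 favouring the brown fat fate, and burn lipid through the uncoupling protein UCP1. In rodents brown fat forms before birth, whereas most white fat fills after birth. Several of the 10 genes are not confined to fat: the insulin-regulated glucose transporter GLUT4 (Slc2a4) is abundant in muscle fibres, Fabp4 is made by capillary endothelium and macrophages, and Cebpa is expressed in liver, lung and myeloid cells.

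Promoter windows of 250 bases before the start of transcription were on hand for 7 of the genes, with 9 windows in all, from RefSeq (GRCm38.p6). Entries for Cidea, Fabp4 and Slc2a4 were missing. The windows of Cebpa (chr7:35119043-35119292, plus strand), the only gene of the set that was higher on the array labelled RP58-/-, of Lep (chr6:29059971-29060220, plus strand), a known target of C/EBPα, and of Adipoq (chr16:23146286-23146535, plus strand), the gene most specific to fat cells, are shown 5′ to 3′. Capitals mark the TATA box (TATAAA), E-boxes (CANNTG, the sites of bHLH factors) and the palindromic C/EBP site (TTGCGCAA).
Cebpa: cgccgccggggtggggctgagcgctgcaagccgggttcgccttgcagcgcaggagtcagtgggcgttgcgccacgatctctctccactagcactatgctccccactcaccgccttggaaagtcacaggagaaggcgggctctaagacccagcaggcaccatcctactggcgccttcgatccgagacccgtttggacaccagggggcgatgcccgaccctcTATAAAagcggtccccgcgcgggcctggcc
Lep: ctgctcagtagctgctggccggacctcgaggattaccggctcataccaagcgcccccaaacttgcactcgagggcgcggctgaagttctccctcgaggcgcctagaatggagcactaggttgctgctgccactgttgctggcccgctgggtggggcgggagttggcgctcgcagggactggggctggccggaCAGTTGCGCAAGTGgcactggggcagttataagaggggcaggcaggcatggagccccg
Adipoq: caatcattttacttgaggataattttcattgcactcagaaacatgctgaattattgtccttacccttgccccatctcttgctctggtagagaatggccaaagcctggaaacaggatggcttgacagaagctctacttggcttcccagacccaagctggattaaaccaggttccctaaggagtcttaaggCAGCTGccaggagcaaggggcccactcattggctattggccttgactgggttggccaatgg
The C/EBP palindrome began 55 bases before the Lep start and overlapped the E-boxes on either side of it. It was found in 1 of the 9 windows and in 0.16% of all 32851 promoter windows of the same length. An E-box was found in 5 of the 9 windows, against 66.2% of all windows. The letters TATAAA, searched on both strands, were found in 2 of the 9 windows, against 12.4% of all windows. These were the Cebpa window, 30 bases before its start, and 1 of 3 Pparg windows, where the match was on the opposite strand (TTTATA). Only these exact letters were searched, so variant TATA boxes were not marked. The E-box core that RP58 is known to bind, CATCTG on either strand, was found in 0 of the 9 windows and in 14.4% of all windows. A match is a description of the letters only, and the lack of one covers these windows alone.

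The deposited values are log2 signals made with RMA, so a difference of 1 is a 2-fold change, and every difference is given as the array labelled RP58-/- minus the array labelled RP58+/+. With 1 array per genotype no spread between embryos is known, no test could be run, and the precision of each value is limited by having so few arrays. In place of a test a gene was called lower or higher when it differed by at least 1.5-fold, which is 0.58 in log2 units. A floor was set at the 40th percentile of the mean signals (log2 5.52), dimmer probe sets were kept out of the calls, and the brightest probe set above the floor stood for its gene. The only repeat measure is that between probe sets of a gene, with a pooled SD of the difference of 0.28 over 5675 genes.

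Neither the targeted gene nor the sex-linked genes settled the comparison. Zbtb18 was at 8.91 on the array labelled RP58+/+ and 9.21 on the array labelled RP58-/-, and the sources used here do not say whether its probe set reads the deleted part. Xist was at 11.47 and 6.96 on these arrays and the Y-linked Eif2s3y at 3.59 and 8.58, so genotype label and sex-linked signal cannot be told apart. The poly-A control RNAs, read by 24 probe sets, had a median difference of -0.75 and were all below 0, and scaling to them would add 0.75 to every difference. All differences are hence to be read against the median gene, at -0.003. The muscle label matched the data, with skeletal actin (Acta1) at 13.95 and 13.36 and muscle creatine kinase (Ckm) at 13.53 and 12.11, but albumin (Alb), a liver product, was at 14.23 and 14.30.

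Slc2a4 and Cidea were lower and Cebpa higher on the array labelled RP58-/-, and the probe sets of Pparg, Adipoq and Lep were under the floor. Of the 9 genes, 6 had a probe set above the floor, and of these 2 were lower, 1 was higher and 3 were within the size rule (Fabp4, Prdm16 and Ucp1). Over all 14093 genes above the floor, 6.51% were lower and 3.83% higher by the same rule. The median difference of the 6 genes was -0.29, with 5 of them below 0, against -0.003 over all genes, and it was closer to 0 with no floor (-0.09) and without probe sets that recognise several transcripts or genes (-0.07). With 6 genes, counts of 2 and 1 give shares too coarse to set the genes apart from that background. At 2-fold, 0 of the 6 were lower and 0 higher, against 2.31% and 0.908% of all genes.

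**Figure D1:**
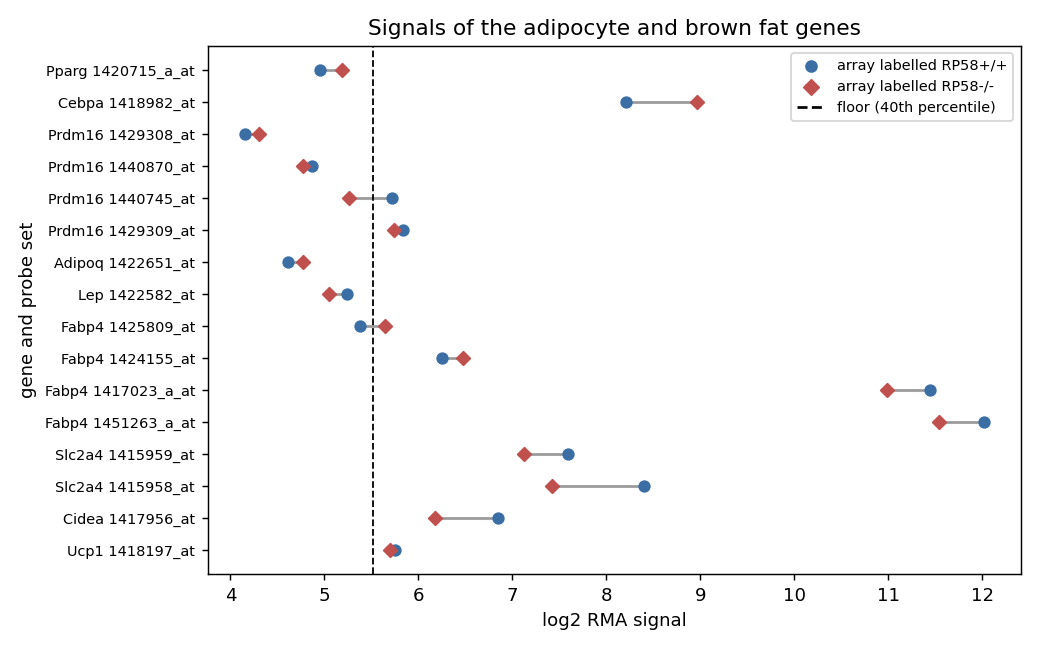
Log2 RMA signal (x axis) of each of the 16 probe sets (y axis, gene and probe set name) on the array labelled RP58+/+ (circles) and the array labelled RP58-/- (diamonds); the dashed line is the floor at 5.52. The probe sets of Pparg, Adipoq and Lep lie left of the floor on both arrays, the Slc2a4 pair shifts left on the array labelled RP58-/- and Cebpa shifts right; levels of different probe sets are not comparable.

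The transcription factors differed among themselves. Cebpa was read by 1 probe set (1418982_at), at 8.21 on the array labelled RP58+/+ and 8.97 on the array labelled RP58-/-. This is 1.69-fold higher (0.76), and 275 of the 14093 genes were higher still. Pparg, its partner in fat cell differentiation, was read by 1 probe set under the floor, at 4.95 and 5.19 (0.23). This is within the SD of probe sets, which was taken above the floor only. Prdm16 was read by 4 probe sets, of which only 1429309_at was above the floor, at 5.84 and 5.74 (-0.09). The other probe sets of Prdm16 were at 4.15 and 4.30 (1429308_at, 0.15), 4.86 and 4.77 (1440870_at, -0.10), and 5.72 and 5.26 (1440745_at, -0.46). Thus 3 of 4 Prdm16 probe sets were below 0, and 1 of these crossed the floor between the arrays.

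Liver and lung markers, from tissues that also express Cebpa, were in part higher on the same array. Counts in these and the later marker lists are to be read against 6.51% lower and 3.83% higher of all genes. Of 15 liver markers above the floor, 9 were higher and 0 lower (median 0.82), and their summed linear signal was 99153 on the array labelled RP58+/+ and 145150.4 on the array labelled RP58-/-, with no marker under the floor. Of 6 lung epithelium markers above the floor, 4 were higher. This count was 3 under median centring, loess centring and the floor at the 60th percentile, and 5 with no floor. The summed signals over all 9 lung markers were 765.5 and 3344. The sum on the array labelled RP58-/- rested mostly on the surfactant gene Sftpc, which was at 7.65 and 11.30. Sftpc was the brightest of the list on both arrays and had its largest difference (3.64). Nkx2-1, Scgb1a1 and Sftpa1 lay under the floor. Macrophage markers had 1 of 12 higher (Lyz2, 0.60) and 1 lower (Cd163, -0.76), with summed signals of 9802 and 12335; median centring left 0 of them higher. The part of these cells in the Cebpa difference was not tested, and more cells of a type and more RNA per cell cannot be told apart in such samples.

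Adiponectin and leptin genes were under the floor. Adipoq (1422651_at), which encodes adiponectin, had log2 signals of 4.61 and 4.77 on the arrays labelled RP58+/+ and RP58-/- (0.16). Lep (1422582_at), which encodes the satiety hormone leptin, was at 5.24 and 5.05 (-0.20). Both differences were smaller than the SD of 0.28 between probe sets, which was taken from brighter probe sets, above the floor. RMA gives no detection call, so these values do not show whether the transcripts were present.

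Fabp4, the fatty acid carrier of fat cells and capillaries, was within the size rule, and its probe sets disagreed in direction. The probe set 1451263_a_at was at 12.02 and 11.54 (-0.48) and 1417023_a_at at 11.45 and 10.99 (-0.45), ratios of 1.39 and 1.37 in favour of the array labelled RP58+/+. The probe sets 1424155_at, at 6.26 and 6.48 (0.22), and 1425809_at, at 5.38 and 5.64 (0.27) and under the floor, differed in the other direction. The annotation gives the same database sequence for 1451263_a_at and 1424155_at, which lie on opposite sides of 0. The mean over the 3 probe sets above the floor was -0.24, and without probe sets of the _a_at kind, which recognise several transcripts of a gene, Fabp4 was at 0.22.

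Endothelial markers, whose cells also make Fabp4, had 2 of 14 lower and 0 higher, with 8 below 0, 6 above 0 and a median of -0.19. Their summed signals were 4175 and 3589.9 on the arrays labelled RP58+/+ and RP58-/-. The apelin receptor gene Aplnr was the brightest of the list on both arrays (10.39 and 9.44) and so weighed most in these sums. Aplnr (-0.95) and the tight junction gene Cldn5 (-0.69) were lower, but the other probe set of Aplnr was at -0.53. Without suffixed probe sets 1 gene of the list was lower. Pecam1 was at -0.44 and Cdh5 at -0.33, Esam was at 0.34, and Tie1 lay under the floor. The macrophage markers, the other source named for Fabp4, had a median of 0.26. The part of these cells in the Fabp4 values was not tested.

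Slc2a4, which encodes GLUT4, had the largest difference of the set on brightest probe sets; by the mean over probe sets it was at -0.72 and Cebpa at 0.76. Its probe set 1415958_at was at 8.40 on the array labelled RP58+/+ and 7.42 on the array labelled RP58-/-, 1.97-fold lower (-0.98), and 333 of the 14093 genes were lower still. The other probe set, 1415959_at, was at 7.59 and 7.13, 1.38-fold lower (-0.47) and within the size rule, so that both were below 0. The annotation gives the same database sequence for both, and their gap of 0.52 was reached or exceeded by 13.8% of 3548 genes with a pair of probe sets above the floor, whose median gap was 0.22.

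Muscle fibre markers were lower with Slc2a4. Of 19 above the floor, 16 were lower and 0 higher; their differences ran from -2.34 to -0.18 around a median of -1.60, and the summed signal of all 20 was 136717 on the array labelled RP58+/+ and 63299 on the array labelled RP58-/-, a ratio of 2.16. The calcium store gene Casq1 (-2.34), the muscle isoforms of phosphoglycerate mutase (Pgam2, -2.13) and enolase (Eno3, -2.05), neonatal myosin Myh8 (-1.94) and glycogen phosphorylase Pygm (-1.92) were among the lower genes, and the fast myosin gene Myh1 was at -1.99 with probe sets from -2.12 to 0.15. Myh4, at 6.27 and 4.09, had a mean under the floor. The difference of Slc2a4 lay inside the range of these markers and closer to 0 than their median. Their part in it was not tested.

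Cidea and Ucp1, the members most typical of brown fat, differed from each other. Cidea (1417956_at), which encodes a lipid droplet protein that promotes droplet growth, was at 6.85 on the array labelled RP58+/+ and 6.18 on the array labelled RP58-/-. This is 1.59-fold lower (-0.67), with 708 genes lower still, and no other probe set of Cidea repeats it. Ucp1 (1418197_at), the protein by which brown fat makes heat, was at 5.75 and 5.70 (-0.05), just above the floor. Scaled to the poly-A spike-ins, Cidea changed sign, to 0.08, and with the floor at the 60th percentile it was left out.

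**Figure D2:**
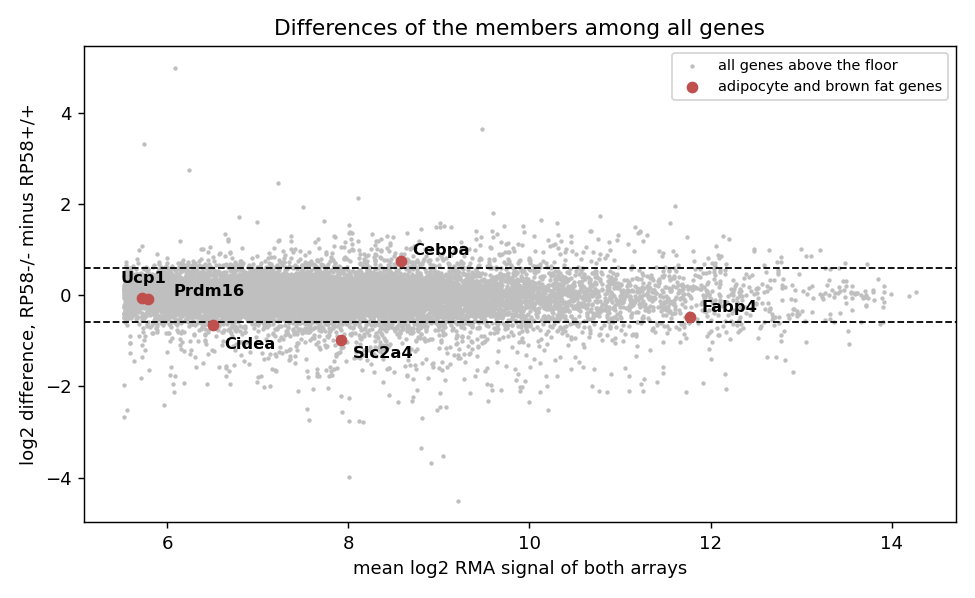
Log2 difference (y axis, array labelled RP58-/- minus array labelled RP58+/+) against the mean log2 RMA signal of both arrays (x axis) for the 14093 genes above the floor (grey) and the 6 adipocyte and brown fat genes among them (red); dashed lines are the 1.5-fold rule. Slc2a4 and Cidea lie under the lower line, Cebpa above the upper line, and Fabp4 just inside the lower line.

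Among the other genes of the members' protein families, Fabp3 was the lowest and Cideb the highest on brightest probe sets; by the mean over probe sets Fabp1 (1.05) exceeded Cideb (1.02). Of 27 such genes above the floor, 6 were lower (Fabp3, Fabp2, Plin4, Mecom, Fabp7 and C1qtnf3) and 3 higher (Cideb, Slc2a2 and Fabp1), and the median was -0.05. Over all genes above the floor 6.51% were lower and 3.83% higher. With the floor at the 60th percentile 4 of the family genes were lower and 3 higher. Fabp3, the fatty acid carrier of heart and muscle, was at 11.38 on the array labelled RP58+/+ and 9.81 on the array labelled RP58-/-, 2.97-fold lower (-1.57). Fabp1, the liver form, was at 11.67 and 12.37 (0.70), with its other probe set at 1.41. The intestinal form Fabp2 (-1.05, falling under the floor from 6.11 to 5.06) and the brain form Fabp7 (-0.70) were lower, and Fabp5, of skin and fat, had probe sets at 0.16 (the brightest) and 0.79.

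Of the 6 glucose transporters read above the floor, Slc2a4 was lower and Slc2a2 higher. Slc2a2, the liver and islet transporter GLUT2, was at 8.89 and 9.60 (0.71, 1.64-fold higher), whereas the widely expressed Slc2a1 (GLUT1) was at -0.05. On their brightest probe sets, the differences of Slc2a3 (0.24), Slc2a8 (-0.07) and Slc2a10 (0.03) were within the SD of probe sets. The other probe set of Slc2a3 was at 0.38, and Slc2a12 was under the floor.

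The families of lipid droplet proteins were split. Cideb, the liver form next to Cidea, was at 8.17 and 9.19 (1.02, 2.02-fold higher). Its only probe set above the floor was of the suffixed kinds, which recognise several transcripts or genes. Cidec, the form most typical of white fat, was under the floor at 3.66 and 3.67. Of the perilipins, which coat lipid droplets, Plin4, known from fat and muscle, was lower by 2.01-fold (-1.01, from 7.12 to 6.11). Plin2, found in most tissues, was at 0.37, Plin3 at 0.10 and Plin5, the form of oxidative tissues, at -0.14, with its other probe set at 0.04.

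The other relatives of the transcription factors and of UCP1 were mostly within the size rule. Cebpb (0.21), Cebpd (-0.11) and Cebpg (-0.09), which encode other C/EBP factors, were within the SD of probe sets on their brightest probe sets, against 0.76 for Cebpa; that contrast could not be tested. Ppara, the PPAR of fatty acid oxidation, was at 0.01 on its brightest probe set, with others up to 0.76, and Ppard at 0.01. Mecom, the closest relative of Prdm16, was lower by 1.87-fold (-0.90, from 6.99 to 6.09), and Ucp3, the muscle uncoupling protein, was at -0.36, with its other probe set at 0.07. Of the relatives of adiponectin, C1qtnf3 was lower (-0.63), C1qtnf2 was at -0.50, C1qtnf9 at -0.32, C1qtnf1 at 0.30 and C1qtnf6 at 0.09.

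**Figure D3:**
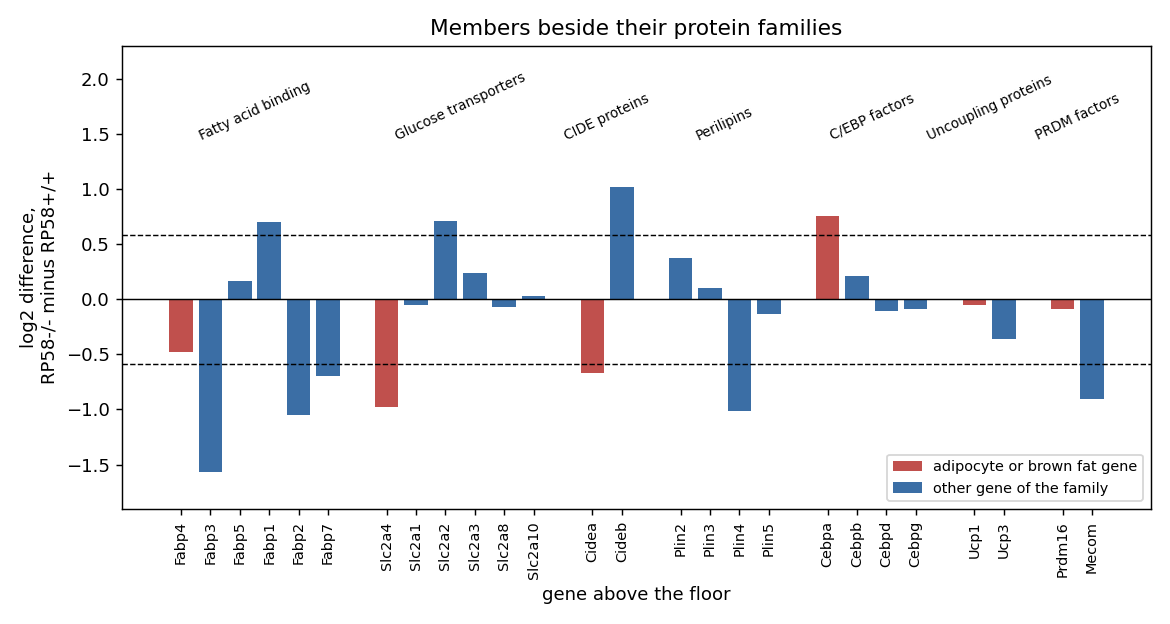
Log2 difference (y axis, array labelled RP58-/- minus array labelled RP58+/+) at the brightest probe set of each gene above the floor, for adipocyte and brown fat genes (red) and other genes of their families (blue); dashed lines are the 1.5-fold rule. Fabp3 (-1.57) and Plin4 (-1.01) reach below Fabp4 and Cidea, and Fabp1, Slc2a2 and Cideb reach above the upper line.

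Among 23 regulators above the floor that act before or with PPARγ and C/EBPα, 0 were lower and 1 was higher, and the median was 0.003. These and the following lists are to be read against the same 6.51% and 3.83% of all genes. The counts of regulators are too small to set them apart from those shares. Without suffixed probe sets 1 regulator was lower and 1 higher. The higher gene was Rxra, the DNA-binding partner of PPARγ, at 0.66, but its other probe set above the floor was at -0.19, and the mean over probe sets was within the rule. Zfp423 and Ebf2, markers of committed fat and brown fat progenitors, were at -0.56 (from 7.17 to 6.61) and -0.47 (from 6.99 to 6.52), and the transcription factor genes Foxo1 (0.51), Klf15 (0.37) and Nr1h3 (0.25) lay on the other side of 0. Srebf1, which drives lipid synthesis, was at 0.003.

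Genes of lipid droplets and lipolysis had 2 of 18 lower and 1 higher, with a median of 0.06. Fitm1, which encodes a muscle-enriched protein that helps lipid droplets form, was lower by 2.41-fold (-1.27, from 9.98 to 8.72). Plin4 was the other lower gene and Cideb the higher one. Without suffixed probe sets 0 genes of the list were higher. Mgll (0.40) and Cavin1 (0.41), both expressed in fat and in other tissues, were within the size rule, and the hormone-sensitive lipase gene Lipe was near the floor at 5.67 and 5.61 (-0.06).

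Among 20 genes of fatty acid and triglyceride synthesis, 2 were lower and 2 higher, and the median was -0.06. Thrsp, a thyroid hormone-responsive gene of lipid synthesis, was at 10.24 on the array labelled RP58+/+ and 7.73 on the array labelled RP58-/-, 5.7-fold lower (-2.51). Its next probe set was at 9.37 and 7.20 (-2.17), but the third was at 7.17 and 7.23 (0.07). The fatty acid transporter gene Cd36 was lower on all 3 of its probe sets (-1.12 to -0.68). Agpat2, an enzyme of triglyceride synthesis, was higher (0.73), as was Pck1 (0.66), which serves glycerol supply in fat and glucose output in liver. Gpd1 was at -0.55 and Lpin1 at 0.51. On their brightest probe sets, the main lipogenic genes Fasn (-0.23) and Scd1 (-0.04) and the lipase gene Lpl (0.14) were within the SD of probe sets. The other probe set of Scd1 was at -0.47.

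Secreted products of fat cells were mostly above 0. Of 11 above the floor, 5 were higher and 1 lower, 10 lay above 0, and the median was 0.52. The higher genes were Agt (1.28, from 8.83 to 10.11), Apoe (1.23, from 11.58 to 12.82), Rbp4 (0.97, from 11.99 to 12.96), Angptl4 (0.85) and Rarres2 (0.64), all of which the liver also secretes. The lower gene was Nampt (-0.76), an enzyme of NAD synthesis, with its other probe set at -0.13. Retn, the fat hormone resistin, was at 7.62 and 7.66 (0.04). The liver markers were higher on the same array with a median of 0.82, and their part in these genes was not tested. When probe sets that recognise several transcripts or genes (suffixes _a_at, _s_at and _x_at) were dropped, the list had 2 higher genes and a median of 0.09.

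Genes of brown fat and heat production numbered 5 lower and 3 higher among 25, and their median was -0.05. The lower genes were Cox7a1 (3.99-fold, from 11.69 to 9.70) and Cox8b (2.01-fold, from 11.54 to 10.53), cytochrome oxidase subunits of muscle and brown fat, the creatine synthesis gene Gamt (-1.13), the nuclear receptor gene Esrra (-0.72) and its coactivator Ppargc1a (-0.63). All 5 probe sets of Ppargc1a were below 0, from -1.11 to -0.19. The higher genes were Slc27a2 (1.18), a fatty acid transporter of liver and kidney, Irf4 (0.70) and Ckmt1 (0.67), whose other probe set was at -0.55. Irf4 was at 5.65, near the floor, on the array labelled RP58+/+ and at 6.35 on the array labelled RP58-/-. With the floor at the 60th percentile 5 genes of the list were lower and 2 higher. The brown fat markers Zic1, Lhx8 and Otop1 were under the floor, and Elovl3 (0.07) and Dio2 (0.25, with others at -0.55 and 0.07) were within the size rule.

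Genes that carry leptin, adiponectin and insulin signals had 4 of 22 lower and 0 higher, with a median of -0.19. Prkag3, the AMP kinase subunit of fast muscle, was lower by 2.34-fold (-1.23, from 6.80 to 5.58), and Tbc1d4, the insulin-regulated brake on GLUT4 traffic, by 2.03-fold (-1.02, from 6.67 to 5.65). Cdh13, which binds adiponectin, was at -0.89 and -0.57 on its probe sets, and Prkaa1, a catalytic subunit of AMP kinase, at -0.72, with a signal that went under the floor from 6.09 to 5.37. Tbc1d1, a relative of Tbc1d4, was at -0.58, just inside the size rule. The receptors of the hormones were within the size rule on every probe set above the floor. Adipor1 was at -0.23, -0.34 and -0.49, Adipor2 at -0.14 and -0.44, the leptin receptor Lepr at -0.17, and the insulin receptor Insr at 0.22 and -0.24. The insulin receptor substrate Irs1 was at -0.21. With the floor at the 60th percentile 1 of these genes was lower by the rule.

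**Figure D4:**
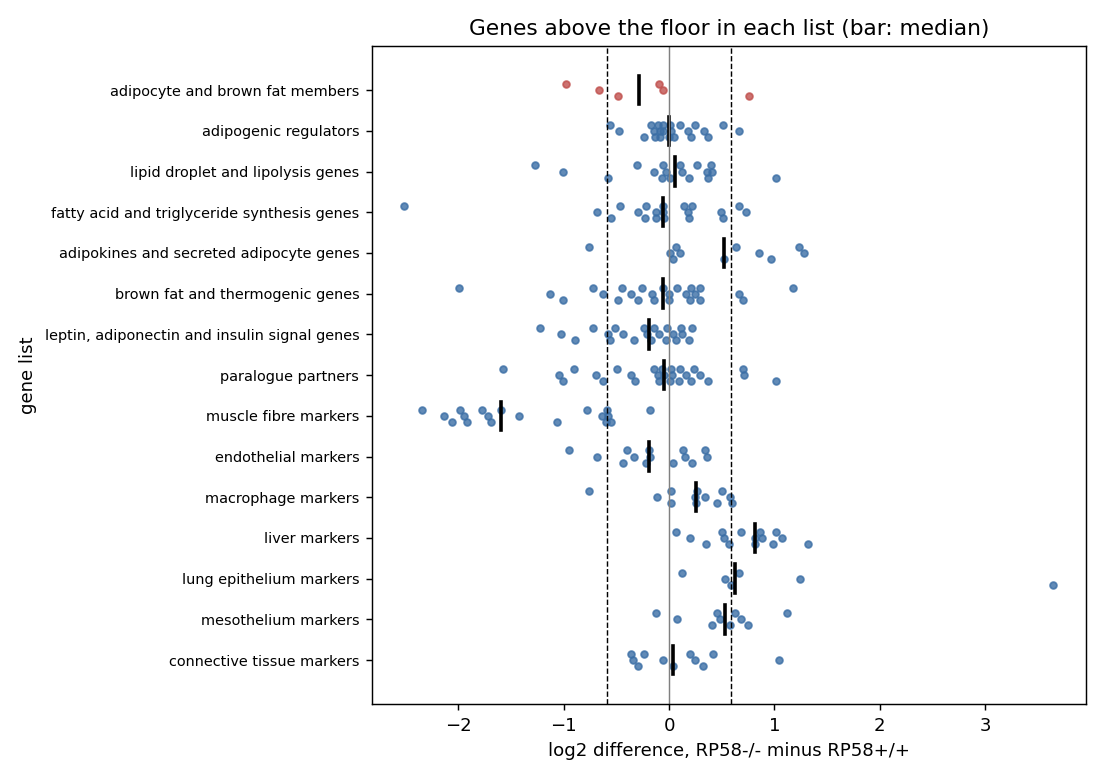
Log2 difference (x axis, array labelled RP58-/- minus array labelled RP58+/+) of each gene above the floor in the adipocyte and brown fat set (red) and the other lists (blue), 1 row per list; vertical bars are list medians and dashed lines the 1.5-fold rule. The muscle fibre markers lie furthest to the left (median -1.60) and the liver markers furthest to the right (median 0.82), with the 6 adipocyte and brown fat genes spread from -0.98 to 0.76.

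Mesothelium markers, from the lining of the diaphragm, had 4 of 10 higher and 0 lower, with a median of 0.53, summed signals of 9287 and 14149 and none under the floor. Connective tissue markers, from cells that include fat progenitors, had a median of 0.03 and summed signals of 47395 and 50432, none under the floor, with Osr1 higher (1.04, from 7.91 to 8.95) and the other 10 within the size rule on their brightest probe sets. The other probe set of Col1a1 was at 1.004, and by the mean over probe sets 2 genes of the list were higher. Whether these cells bear on the fat genes was not tested.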

How the data were processed

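The series comprises 2 Affymetrix mouse arrays of total RNA from embryonic diaphragm muscle, 1 labelled RP58+/+ and 1 labelled RP58-/-. The authors deposited log2 signals per probe set, computed with RMA (background correction, quantile normalisation and probe summary) per the series' design text. The submitters' processing notes name Affymetrix Expression Console 1.1. RMA gives no detection call and shrinks differences at both ends of the signal range, and quantile normalisation removes any difference in total mRNA.

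Here the deposited log2 values were subtracted, array labelled RP58-/- minus array labelled RP58+/+, with pandas 2.3.3. With 1 array per group no test could be run. Probe sets were named from the platform annotation. Probe sets with a mean log2 signal under the 40th percentile (5.52) were set aside, each gene was read from its brightest remaining probe set, and 1.5-fold (0.58 on the log2 scale) was the size rule. The members and all gene lists were chosen with earlier results of these data known. Named besides the members and the other genes of their protein families are up to 5 genes per list, those with the largest differences whose probe sets all lay on the same side of 0. Genes behind counts of 5 or fewer and outside that choice (Rxra, Thrsp, Ppargc1a, Ckmt1, Irf4, Rarres2), and the genes given for contrast (Lpl, Fasn, Scd1, Srebf1, Elovl3, Dio2, Lipe, Retn, Lepr, Adipor1, Adipor2, Insr, Irs1, Myh1, Myl1, Mylpf and markers under the floor), were picked after their values were seen. Acta1, Ckm and Alb, given beside the muscle label, also lay outside that choice and were picked with values known. Promoter windows came from RefSeq (GRCm38.p6). The functions were tested on simulated data. Alternatives were the mean over probe sets, no floor, a floor at the 60th percentile, median and loess centring (statsmodels 0.14.6), probe set kinds left out, a 2-fold rule and, added after seeing the data, scaling to poly-A spike-ins.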

Additional observations from a re-analysis of the deposited data

How the results depend on the processing

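With 1 array per genotype, the values carry no error between embryos, and agreement between settings says nothing of that error. No paired analysis was possible because each group has 1 sample. Under the mean over probe sets, no floor, median centring, loess centring and dropping probe sets with the suffixes _a_at, _s_at and _x_at, the counts of 2 lower and 1 higher member genes stayed within 1.5 times. Their median of -0.29 was closer to 0 by the mean over probe sets (-0.16), with no floor (-0.09) and with those suffixes dropped (-0.07), and at -0.31 and -0.29 under the centrings. With the floor at the 60th percentile 1 member gene was lower and the median was -0.48, since Cidea, Prdm16 and Ucp1 were not read there. At 2-fold, 0 member genes were lower and 0 higher. Scaling to the poly-A spike-ins, chosen after seeing the data, left 0 member genes lower and 3 higher, with a median of 0.46. It raised the median of all genes to 0.74, turned the split of all genes from 918 lower and 540 higher to 182 and 9990.0, and placed Slc2a4 at -0.23. Of 40 listed genes called lower, 11 changed sign under it: Cidea (0.081), C1qtnf3 (0.12), Cd36 (0.0662), Cldn5 (0.0601), Esrra (0.0237), Fabp7 (0.0513), Prkaa1 (0.0249), Ppargc1a (0.12), Acta1 (0.15), Myl1 (0.11) and Mylpf (0.16). Low signal limits Pparg, Adipoq and Lep, under the floor, and Prdm16 and Ucp1, just above it.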
